A study of Mus musculus with 4 samples.

Results

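The HOX cluster genes are the mouse genes whose symbol joins Hox, a cluster letter from a to d and a paralog number, and 39 of the 49585 genes in the count files met that rule. The HOXA cluster gave 11 of them, HOXB 10, HOXC 9 and HOXD 9. They were followed in C2C12 cells, a myoblast line derived from C3H mice that fuses into myotubes when serum is lowered. One group had been transduced with a retrovirus to overexpress C/EBPβ, a bZIP transcription factor that drives genes of fat, liver and myeloid cells, and the other with the empty vector pLXSN. Both groups went through the same steps. Growth was in 10% fetal bovine serum, G418 selection at 1200 μg/ml lasted 7 days, resistant cells were kept as pools and grew for 2 more days, and from 90% confluency they differentiated for 2 days in 2% horse serum. Each group held 2 stranded mRNA libraries, so that the comparison shows how HOX gene expression in differentiating myoblasts with extra C/EBPβ differed from that with the empty vector. No label states that replicates are separate cultures, so the p-values rest on differences among libraries that may be only technical.

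HOX genes encode homeodomain transcription factors that give cells along the body axis and the limb their positional identity. Within a cluster the genes lie in order of their paralog number, low numbers being active towards the head and high numbers towards the tail and the far end of the limb, and neighbouring genes are often switched on or kept silent together by Trithorax and Polycomb group chromatin proteins. HOX proteins bind DNA with partners of the PBX and MEIS families. Cultured cells, myoblasts among them, tend to keep a HOX pattern that reflects where in the body they came from.

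Assigned fragments numbered 50493417 and 36461091 in C/EBPβ libraries, against 45448661 and 51537847 in empty-vector libraries. Cebpb itself had 502 and 442 CPM (fragments of a gene relative to the TMM-scaled size of its library) in C/EBPβ libraries, against 42.7 and 41.3 CPM in empty-vector libraries, a log2 fold change of 3.49 ± 0.11 (SE) with an adjusted p of 9.03e-07 in edgeR's quasi-likelihood test. The counts cannot separate the transferred copy from the cell's own gene. The comparison moved much of the transcriptome, and 6864 of 15886 genes tested (43.2%) had an adjusted p under 0.05, the threshold used for every call. Of all genes tested, 22.3% were called higher and 20.9% lower with C/EBPβ, and in 75.1% both C/EBPβ libraries lay on one side of both empty-vector libraries. The median log2 fold change of all genes tested was 0.01.

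Paralogs share their DNA-binding region, and how far reads could be told apart between them bears on every value that follows. The stretch that encodes the recognition helix of the homeodomain, the part that lies in the groove of the DNA, is given for HOXA and HOXC genes of paralog groups 10 and 11 and for Hoxc8, which include the most abundant members and the member with the largest fold change. Each line holds 45 bases of the GENCODE M21 transcript (15 codons), 5′ to 3′, and capitals mark the bases that differ from Hoxa10.
Hoxa10: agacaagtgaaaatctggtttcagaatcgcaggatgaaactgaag
Hoxc10: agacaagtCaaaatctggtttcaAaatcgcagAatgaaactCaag
Hoxa11: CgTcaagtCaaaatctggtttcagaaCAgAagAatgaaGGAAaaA
Hoxc11: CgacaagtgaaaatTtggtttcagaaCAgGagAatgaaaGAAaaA
Hoxc8: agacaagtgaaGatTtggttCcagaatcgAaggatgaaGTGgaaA
In this most conserved stretch Hoxa10 and Hoxc10 still differed at 4 bases, and Hoxa11 and Hoxc11 at 5. Other members were not distinct there, since Hoxa6 and Hoxb4 were identical over the 45 bases, as were Hoxb3 and Hoxd3. Over whole transcripts cut into 50-base windows, Hoxa10, Hoxa11 and Hoxc11 shared no window with any other gene. Hoxc8 shared 12 of its 2780 windows with 259 other genes, and Hoxc9 shared 30 of 2364 with 253. Outside overlapping genes, the windows that 2 HOX genes shared were those of Hoxa6 with Hoxb4, at 3 windows of Hoxa6, and of Hoxb9 with Hoxc9. Hoxc5 and Hoxc10 overlap by 166 exonic bases on the same strand, and 267 exonic bases of Hoxa2 and 482 of Hoxa3 overlap those of the gene Gm28308. Hoxd3 shares 62.35% of its exonic bases, and Hoxd4 52.31%, with each other or with the gene Gm28230. Hoxd10 shares 5.73% and Hoxd11 10.8% with the gene Gm28309. The counting command in the file headers held no option for fragments that overlap several genes, so fragments from those stretches are uncertain and may be missing from the counts.

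Among the 39 genes, expression sat in 2 clusters. All 11 HOXA and all 9 HOXC genes had fragments, 27291 in HOXA and 32427 in HOXC over the 4 libraries, whereas 8 of 10 HOXB genes together had 230 fragments and none of the 9 HOXD genes had any. HOXA members summed to 179 and 169 CPM in C/EBPβ libraries, against 130 and 119 CPM in empty-vector libraries. HOXC members summed to 200 and 189 CPM in C/EBPβ libraries, against 163 and 154 CPM in empty-vector libraries. Both sums were higher in each C/EBPβ library than in either empty-vector library, while the summed HOXB level was 0.976 and 1.04 CPM in C/EBPβ libraries, against 1.68 and 1.31 CPM in empty-vector libraries.

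**Figure D1:**
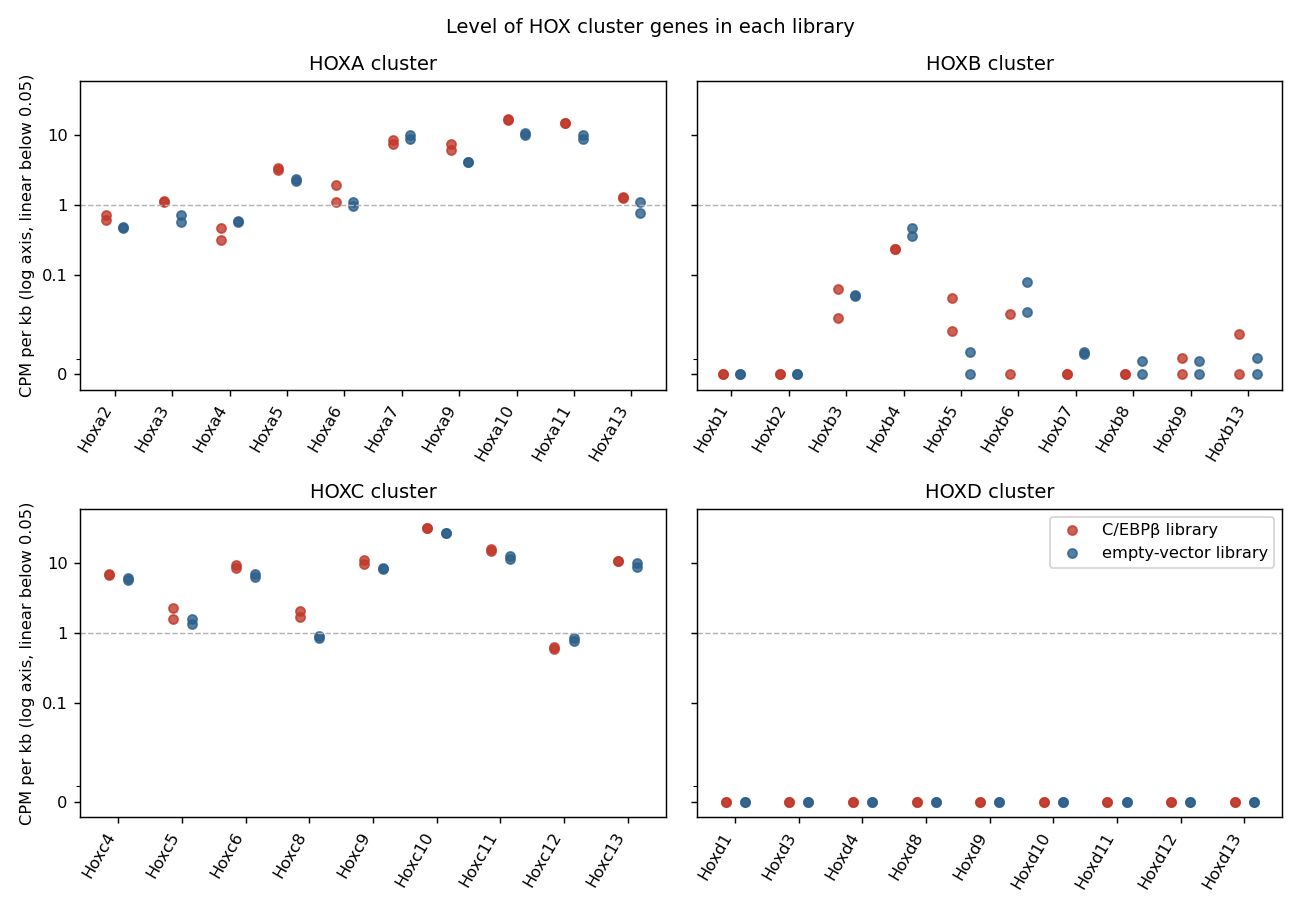
Level of 38 HOX cluster genes in CPM per kb of exonic length, on an axis that is logarithmic above 0.05 and linear below it, 1 point per library, C/EBPβ libraries left of empty-vector libraries for each gene. HOXA and HOXC genes reach up to 32.3 CPM per kb, HOXB genes stay under 0.5, and HOXD genes are at 0. The dashed line marks 1 CPM per kb.

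Levels of different genes are compared per kb of exonic length, as the count files give it. At a mean of 1 CPM per kb or more there were 17 members in C/EBPβ libraries, 9 of HOXA and 8 of HOXC, and 14 members in empty-vector libraries, 7 of each cluster. Genes of paralog groups 9 to 13, which pattern the hind part of the trunk and the limb, made up 74.4% and 75.7% of the summed CPM per kb of all members in C/EBPβ libraries, against 71.9% and 72.8% in empty-vector libraries. Groups 1 to 3, known from hindbrain and neck, made up 2.00% and 2.19% in C/EBPβ libraries and 2.38% and 2.10% in empty-vector libraries, so that the libraries overlapped. Groups 4 to 8 made up 23.6% and 22.1% in C/EBPβ libraries and 25.7% and 25.1% in empty-vector libraries. The HOXA share of the same sum was 38.8% and 38.9% in C/EBPβ libraries and 36.7% and 35.7% in empty-vector libraries, and HOXC held 60.9% in each C/EBPβ library against 62.8% and 63.9% in empty-vector libraries.

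Hoxc10, a gene of the lumbar spinal cord and hindlimb, had the highest level per length in both groups, at 32.1 ± 0.28 CPM per kb in C/EBPβ libraries and 26.8 ± 0.41 in empty-vector libraries (SD, n = 2 each, as for all such values). Hoxa10, known from the lumbar vertebrae and the uterus, came next in C/EBPβ libraries at 16.9 ± 0.19 CPM per kb, against 10.7 ± 0.49 in empty-vector libraries. Hoxc11, a hindlimb gene, had 15.4 ± 0.70 CPM per kb in C/EBPβ libraries and 11.9 ± 0.74 in empty-vector libraries, where it ranked above Hoxa10. Among the C/EBPβ libraries the values of Hoxc11 and Hoxa11 overlapped, and Hoxa11, which shapes the forearm and lower leg, had 15.1 ± 0.09 CPM per kb there and 9.51 ± 0.95 in empty-vector libraries. Hoxc13, known from hair follicles and nails, had 10.7 ± 0.02 CPM per kb in C/EBPβ libraries and 9.47 ± 0.90 in empty-vector libraries. Hoxa7 had 8.07 ± 0.62 CPM per kb in C/EBPβ libraries and 9.67 ± 0.89 in empty-vector libraries, where it ranked just above Hoxa11 with overlapping values. The order of levels did not follow paralog number throughout, since Hoxc12 had 0.615 ± 0.03 CPM per kb in C/EBPβ libraries and 0.808 ± 0.06 in empty-vector libraries between 2 abundant neighbours, and Hoxc8, between Hoxc6 and Hoxc9, had 1.89 ± 0.25 in C/EBPβ libraries and 0.867 ± 0.04 in empty-vector libraries.

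Of the 22 members with enough fragments to be tested, 10 were called higher with C/EBPβ (45.5%, where 22.3% of all genes tested were), 1 was called lower (4.55%, where 20.9% were) and 11 were not called. The filter on low counts keeps genes that are high in either group, so these shares describe the members tested and not all 39. The median log2 fold change was 0.39 over the 22, 0.54 over the 11 HOXA genes and 0.29 over the 9 HOXC genes, beside 0.01 over all genes tested. In 16 members both C/EBPβ libraries lay above both empty-vector libraries, in 5 below, and in 1 the groups overlapped. The groups were apart in 95.45% of members tested, beside 75.1% of all genes tested. The counts depended on single libraries, with 6 members called higher without C/EBPβ replicate 1 and 4 without empty-vector replicate 2. Those 4, Hoxa9, Hoxa10, Hoxa11 and Hoxc8, were called higher under each of the 12 alternatives run.

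**Figure D2:**
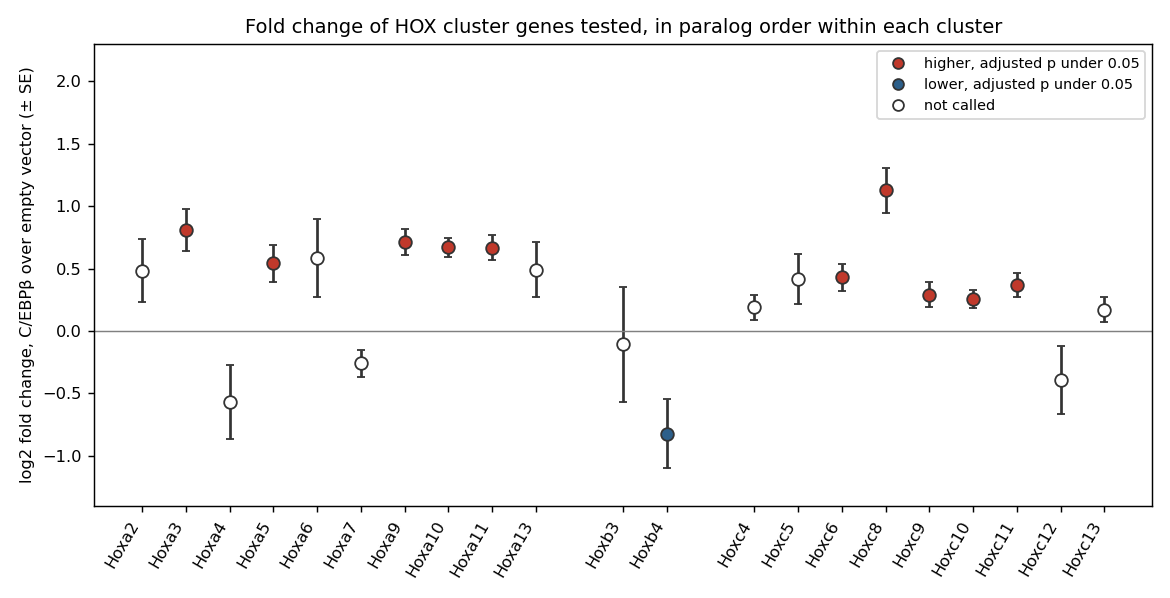
Log2 fold change (C/EBPβ over empty vector) of 21 HOX cluster genes tested, with its standard error, in paralog order within HOXA, HOXB and HOXC. Filled points passed an adjusted p of 0.05 in edgeR's quasi-likelihood test; 16 of the 21 values are above 0 and Hoxc8 has the largest, 1.13.

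In HOXA, the genes called higher were Hoxa3, Hoxa5 and the run of neighbours Hoxa9, Hoxa10 and Hoxa11. Hoxa3 (chromosome 6, 52169062 to 52213336, minus strand, GRCm38), needed for the thymus and the neck vertebrae, had 6.82 and 6.86 CPM in C/EBPβ libraries, against 4.38 and 3.44 CPM in empty-vector libraries. Its log2 fold change was 0.81 ± 0.17 with an adjusted p of 0.00607, and without empty-vector replicate 2 it was 0.64 with an adjusted p of 0.0552. Hoxa5 (52201754 to 52204587), a gene of the neck and the lung, had 6.51 and 6.02 CPM in C/EBPβ libraries, against 4.20 and 4.41 CPM in empty-vector libraries. The groups were apart for both genes, and the log2 fold change of Hoxa5 was 0.54 ± 0.15 with an adjusted p of 0.0201. For Hoxa5 the adjusted p was 0.0661 without C/EBPβ replicate 1, 0.104 without empty-vector replicate 1 and 0.0863 without empty-vector replicate 2.

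Hoxa9 (52223100 to 52231089), known from blood stem cells and from muscle stem cells of aged mice, had 41.9 and 34.9 CPM in C/EBPβ libraries, against 23.4 and 23.6 CPM in empty-vector libraries. Its log2 fold change was 0.71 ± 0.11 with an adjusted p of 0.0013. The spread was wider between the C/EBPβ libraries than between the empty-vector libraries, and the groups were apart. Hoxa10 (52231197 to 52240854) had 55.0 and 55.8 CPM in C/EBPβ libraries, against 36.0 and 33.7 CPM in empty-vector libraries, and a log2 fold change of 0.67 ± 0.08 with an adjusted p of 0.000402, the smallest among the members. Hoxa11 (52242106 to 52245810) had 34.7 and 34.4 CPM in C/EBPβ libraries, against 23.3 and 20.2 CPM in empty-vector libraries, and a log2 fold change of 0.67 ± 0.10 with an adjusted p of 0.00128. These 3 neighbours were 1.59- to 1.64-fold higher by their means.

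The other 6 HOXA genes were not called, and their values ran both ways. Hoxa2, which patterns the hindbrain and the middle ear, had a log2 fold change of 0.48 ± 0.25 with an adjusted p of 0.159. Hoxa6 stood at 0.59 ± 0.31 with an adjusted p of 0.166 and was carried by 1 library, with 1.70 and 0.985 CPM in C/EBPβ libraries, against 0.853 and 0.969 CPM in empty-vector libraries. Without C/EBPβ replicate 2 its log2 fold change was 0.88 with an adjusted p of 0.0151. Hoxa13, a gene of the digits and the genital tubercle, stood at 0.49 ± 0.22 with an adjusted p of 0.111. In all 3 both C/EBPβ libraries lay above both empty-vector libraries.

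In Hoxa4 and Hoxa7 both C/EBPβ libraries lay below both empty-vector libraries. Hoxa4 stood at -0.57 ± 0.30 with an adjusted p of 0.156. Hoxa7, a gene of the trunk, had 24.5 and 21.9 CPM in C/EBPβ libraries, against 29.6 and 26.0 CPM in empty-vector libraries, with a log2 fold change of -0.26 ± 0.11 and an adjusted p of 0.0831. Without C/EBPβ replicate 1 the log2 fold change of Hoxa7 was -0.34 with an adjusted p of 0.0425. Hoxa7 and Hoxa9 are direct neighbours, and within a library the ratio of Hoxa9 to Hoxa7 fragments was 1.71 and 1.59 in C/EBPβ libraries, against 0.789 and 0.906 in empty-vector libraries. That pair was chosen after its values were seen, and the ratio was not tested.

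**Figure D3:**
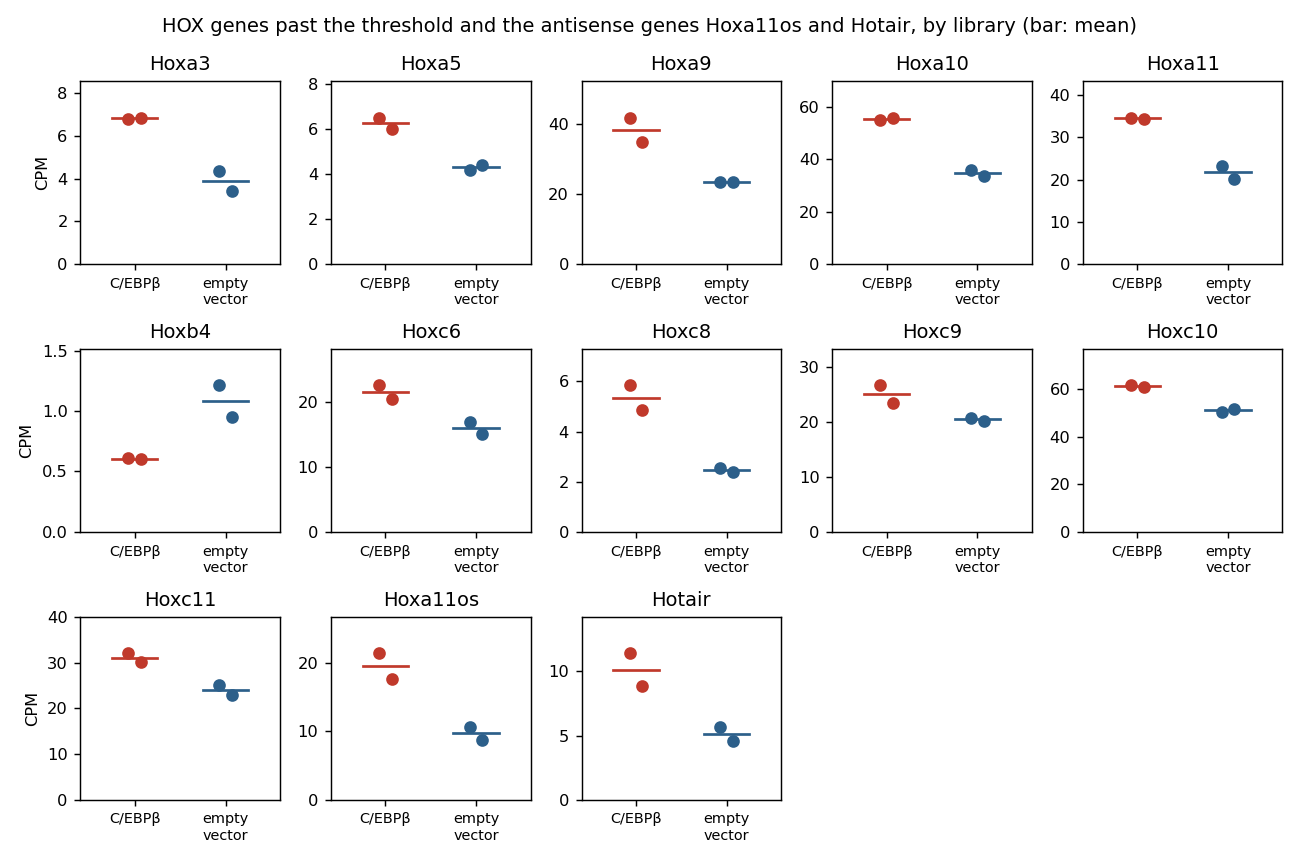
CPM in each library for the 11 HOX cluster genes past an adjusted p of 0.05 and for the 2 antisense genes called, C/EBPβ libraries left and empty-vector libraries right, with a bar at each mean and each axis starting at 0. In Hoxb4 both C/EBPβ libraries are below both empty-vector libraries, and in the other genes shown both are above.

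In HOXC, Hoxc6 and the run Hoxc8, Hoxc9, Hoxc10 and Hoxc11 were called higher. Hoxc8 (chromosome 15, 102990607 to 102994111, plus strand), known from motor neurons of the forelimb level and from cartilage, had 5.84 and 4.84 CPM in C/EBPβ libraries, against 2.54 and 2.37 CPM in empty-vector libraries. Its log2 fold change was 1.13 ± 0.18 with an adjusted p of 0.00185, a 2.18-fold difference of the means and the largest among the members tested. Hoxc6 (102998257 to 103011881), a gene of the thorax and the mammary gland, had 22.6 and 20.6 CPM in C/EBPβ libraries, against 16.9 and 15.2 CPM in empty-vector libraries. The log2 fold change of Hoxc6 was 0.43 ± 0.11 with an adjusted p of 0.0139, which became 0.0594 without C/EBPβ replicate 1 and 0.098 without empty-vector replicate 2.

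Hoxc11 (102954427 to 102957708) had 32.1 and 30.1 CPM in C/EBPβ libraries, against 25.2 and 23.0 CPM in empty-vector libraries, and a log2 fold change of 0.37 ± 0.09 with an adjusted p of 0.0143. Without empty-vector replicate 2 the adjusted p of Hoxc11 was 0.0948. Hoxc10 (102966796 to 102971893) had 61.6 and 60.8 CPM in C/EBPβ libraries, against 50.6 and 51.7 CPM in empty-vector libraries, and a log2 fold change of 0.26 ± 0.07 with an adjusted p of 0.0206. Both groups were tight and apart for Hoxc10, yet the change was small, and its call was lost without any 1 of the 4 libraries, at adjusted p-values of 0.0723 without C/EBPβ replicate 1, 0.0632 without C/EBPβ replicate 2, 0.102 without empty-vector replicate 1 and 0.0779 without empty-vector replicate 2. With all 4 libraries, DESeq2 gave Hoxc10 an adjusted p of 0.0504. Hoxc9 (102976439 to 102985099), which sets the thoracic identity of motor neurons, had 26.6 and 23.5 CPM in C/EBPβ libraries, against 20.8 and 20.3 CPM in empty-vector libraries. Its log2 fold change was 0.29 ± 0.10 with an adjusted p of 0.0495, at the edge of the threshold, and 6 of the 12 alternatives did not call it. Without C/EBPβ replicate 1 the log2 fold change of Hoxc9 was 0.20 with an adjusted p of 0.326, without empty-vector replicate 1 its adjusted p was 0.113, and without empty-vector replicate 2 it was 0.18.

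The other 4 HOXC genes were not called. Hoxc4 stood at a log2 fold change of 0.19 ± 0.10 with an adjusted p of 0.17, and Hoxc5 at 0.41 ± 0.20 with an adjusted p of 0.132. Without C/EBPβ replicate 2, Hoxc5 stood at 0.61 with an adjusted p of 0.00658. Hoxc13 had 26.3 and 26.2 CPM in C/EBPβ libraries, against 24.9 and 21.8 CPM in empty-vector libraries, and a log2 fold change of 0.17 ± 0.10 with an adjusted p of 0.207. Hoxc12 was the only HOXC gene with both C/EBPβ libraries below both empty-vector libraries, at 32 and 24 fragments in C/EBPβ libraries, against 39 and 40 in empty-vector libraries, and a log2 fold change of -0.39 ± 0.27 with an adjusted p of 0.279.

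The paralogs that HOXA and HOXC share can be set against each other inside a library, where scaling between libraries cancels. This comparison of 7 pairs was added after the values were seen. The ratio of Hoxa9 to Hoxc9 fragments was 1.57 and 1.49 in C/EBPβ libraries, against 1.13 and 1.16 in empty-vector libraries. For Hoxa10 over Hoxc10 it was 0.892 and 0.918 in C/EBPβ libraries, against 0.711 and 0.651 in empty-vector libraries, and for Hoxa11 over Hoxc11 it was 1.08 and 1.14 in C/EBPβ libraries, against 0.926 and 0.877 in empty-vector libraries. In 4 pairs, paralogs 9, 10, 11 and 13, both C/EBPβ libraries had the higher HOXA to HOXC ratio, in paralog 4 both had the lower one, and in paralogs 5 and 6 the groups overlapped. Groups apart were common in this comparison, as they were in 75.1% of all single genes tested. The share among ratios of other gene pairs was not computed. With 2 libraries against 2, an exact two-sided permutation test cannot give a p below 0.333, so the ratios were not tested.

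HOXB had few fragments. Hoxb4 (chromosome 11, 96318267 to 96321638, plus strand), known from blood stem cells, held most of the cluster's fragments, with 32 and 22 in C/EBPβ libraries, against 54 and 48 in empty-vector libraries. It had 0.613 and 0.602 CPM in C/EBPβ libraries, against 1.21 and 0.949 CPM in empty-vector libraries, and was called lower at a log2 fold change of -0.82 ± 0.28 with an adjusted p of 0.0434. The call rests on few fragments and was lost without each library in turn, at adjusted p-values of 0.103 without C/EBPβ replicate 1, 0.0627 without C/EBPβ replicate 2, 0.219 without empty-vector replicate 1 and 0.0824 without empty-vector replicate 2. Hoxb3, with 8 and 10 fragments in C/EBPβ libraries and 10 and 11 in empty-vector libraries, was tested at a log2 fold change of -0.11 ± 0.46 with an adjusted p of 0.872, and without C/EBPβ replicate 1 it stood at 0.31. Hoxb5 had 4 and 5 fragments in C/EBPβ libraries, against 0 and 2 in empty-vector libraries, and Hoxb6 had 4 and 0 in C/EBPβ libraries, against 7 and 4 in empty-vector libraries. Hoxb13 had 3 and 0 fragments in C/EBPβ libraries, against 1 and 0 in empty-vector libraries, and Hoxb7, Hoxb8 and Hoxb9 had at most 1 in any library. Hoxb1 and Hoxb2 had none, and the 8 HOXB genes other than Hoxb3 and Hoxb4 were not tested.

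HOXD had no fragment in any library. This held for all 9 members (Hoxd1, Hoxd3, Hoxd4, Hoxd8, Hoxd9, Hoxd10, Hoxd11, Hoxd12 and Hoxd13) and for the 10 other annotated genes within the 96.8 kb they span (chromosome 2, 74668310 to 74765142), among them Haglr, Hoxd3os1 and Mir10b. Evx2, the homeobox gene 8.8 kb beyond Hoxd13, was at 0 as well. A count of 0 allows up to 3 fragments per library, which is 0.0574 and 0.0820 CPM in the C/EBPβ libraries, against 0.0673 and 0.0593 CPM in the empty-vector libraries, counting error only. For Hoxd3, Hoxd4, Hoxd10 and Hoxd11 this floor covers with certainty only the exonic bases that they share with no other gene. The nearest well-expressed genes on either side were Lnpk, 88.9 kb away with 1141 and 907 fragments in C/EBPβ libraries against 1391 and 1818 in empty-vector libraries, and Mtx2, 60.7 kb away with 2506 and 1918 fragments in C/EBPβ libraries against 2494 and 3292 in empty-vector libraries. The stretch without fragments thus had expressed genes on both flanks. Counts of RNA do not show whether the HOXD locus is present but silent or absent in these cells, and the groups could not be compared there.

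**Figure D4:**
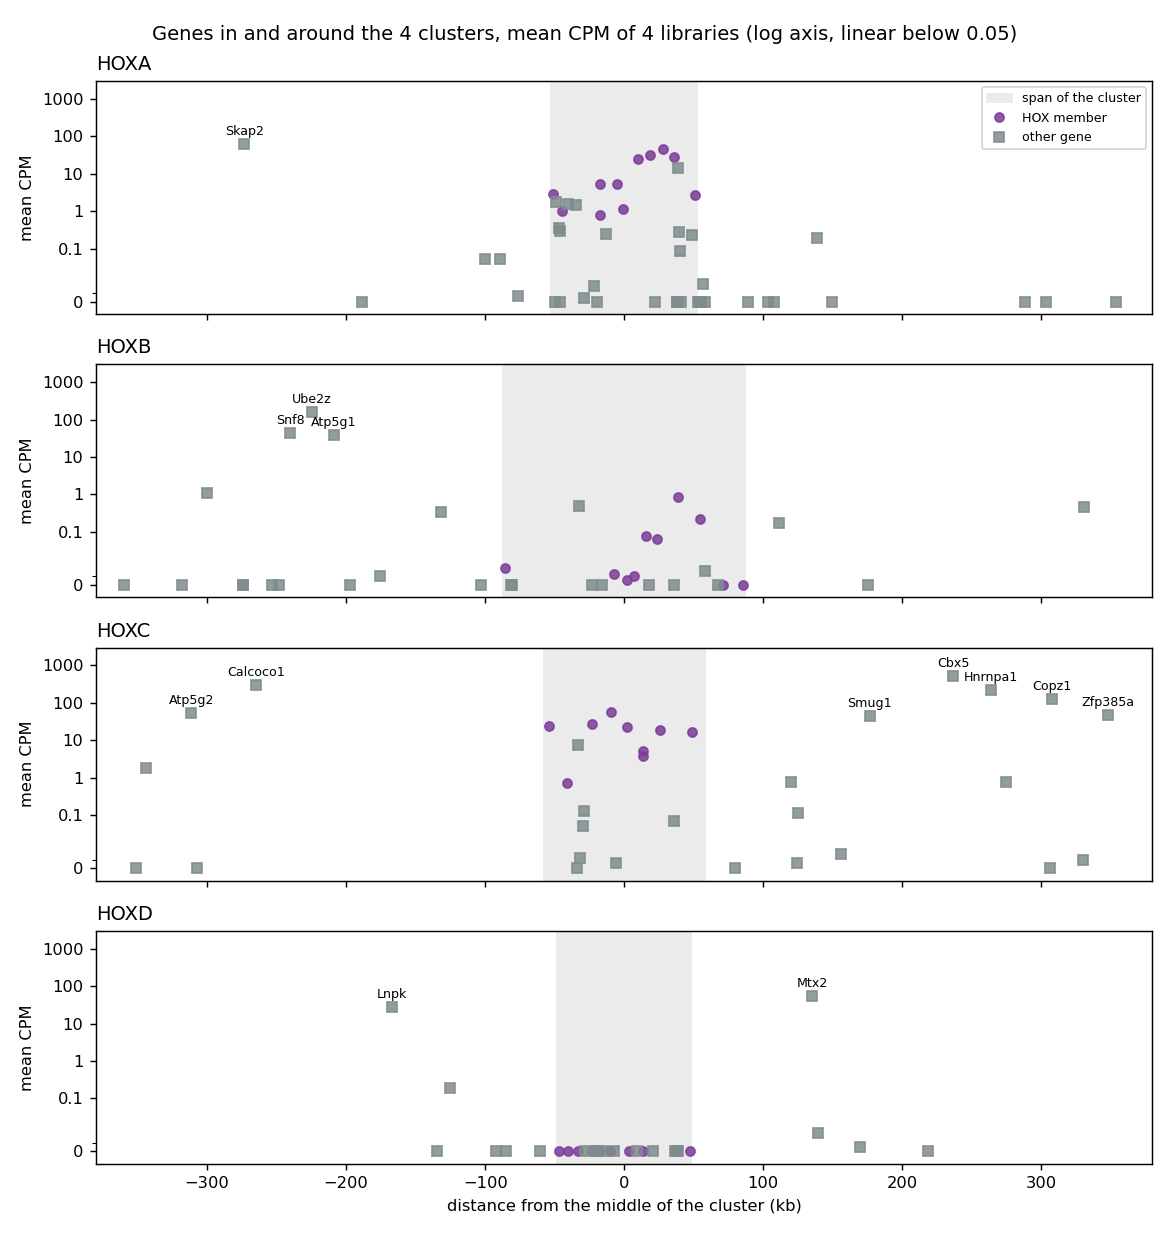
Mean CPM over the 4 libraries of annotated genes in and around each cluster, against the distance of the gene's middle from the middle of the cluster in kb, on an axis that is logarithmic above 0.05 and linear below it. Circles are HOX members, squares are other genes (those at 15 CPM or more are named), and the grey band is the span of the cluster. In HOXD all genes inside the band are at 0, with Lnpk and Mtx2 expressed on its sides.

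Of 19 noncoding HOX cluster genes on a fixed list, 17 were in the count files, 9 had a fragment and 5 could be tested. Of these 5, 2 were called higher and 3 not called, where 22.3% of all genes tested were called higher. Hoxa11os, transcribed opposite to Hoxa11, had 21.4 and 17.7 CPM in C/EBPβ libraries, against 10.6 and 8.80 CPM in empty-vector libraries, and a log2 fold change of 1.01 ± 0.14 with an adjusted p of 0.001. Hotair, the antisense transcript between Hoxc11 and Hoxc12 that is known for binding Polycomb proteins in human cells, had 11.4 and 8.83 CPM in C/EBPβ libraries, against 5.63 and 4.55 CPM in empty-vector libraries, and a log2 fold change of 0.999 ± 0.18 with an adjusted p of 0.00289. Both were called under each of the 12 alternatives. The libraries were stranded and counted by strand, so antisense and sense fragments are kept apart. Per library, Hoxa11os had 0.617 and 0.514 fragments for each Hoxa11 fragment in C/EBPβ libraries, against 0.457 and 0.435 in empty-vector libraries. Hotair had 0.355 and 0.293 for each Hoxc11 fragment in C/EBPβ libraries, against 0.224 and 0.197 in empty-vector libraries. Hotairm1, at the head end of HOXA, stood at 0.26 ± 0.23 with an adjusted p of 0.401, and Hoxaas2 at -0.42 ± 0.25 with an adjusted p of 0.213.

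The partners of HOX proteins belong to the TALE homeodomain family. Of its 9 genes, all tested, 3 were called higher and 2 lower, where 22.3% and 20.9% of all genes tested were. The median log2 fold change of the 9 was -0.008. Pbx3 had 15.8 and 18.2 CPM in C/EBPβ libraries, against 42.0 and 46.5 CPM in empty-vector libraries, and a log2 fold change of -1.39 ± 0.11 with an adjusted p of 5.23e-05. The family's summed level was 380 and 366 CPM in C/EBPβ libraries, against 329 and 324 CPM in empty-vector libraries. Pknox2 was lower at -1.61 ± 0.16 with an adjusted p of 0.000173. Meis1 was higher at 0.44 ± 0.09 with an adjusted p of 0.00701, and Meis3 at 0.85 ± 0.20 with an adjusted p of 0.0141. Without empty-vector replicate 2 neither MEIS gene was called, at adjusted p-values of 0.0517 for Meis1 and 0.11 for Meis3. Meis2 and Pbx2, at log2 fold changes of -0.20 ± 0.08 and -0.01 ± 0.08, were not called in this fit (adjusted p 0.0835 and 0.945). Without C/EBPβ replicate 1 Meis2 stood at -0.28 with an adjusted p of 0.0494.

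Of 29 Polycomb group genes, which keep HOX clusters silent, 10 were called higher and 7 lower. The shares over all genes tested were 22.3% higher and 20.9% lower. The summed level of the 29 was 1874 and 1846 CPM in C/EBPβ libraries, against 1884 and 1854 CPM in empty-vector libraries. Cbx6 and Cbx8, subunits that read the H3K27me3 mark, were higher at log2 fold changes of 0.56 ± 0.09 and 0.69 ± 0.12 (adjusted p 0.00176 and 0.00247). Ezh2, an enzyme that writes the mark, was lower at -0.54 ± 0.10 with an adjusted p of 0.00355. Ezh1, another enzyme that writes it, was higher at 0.36 ± 0.11 with an adjusted p of 0.0313. It had 94.7 and 85.5 CPM in C/EBPβ libraries, against 77.3 and 63.4 CPM in empty-vector libraries. Ezh2 had 31.4 and 28.8 CPM in C/EBPβ libraries, against 40.5 and 47.2 CPM in empty-vector libraries. Phf19, which recruits Ezh2, was lower at -1.07 ± 0.15 (adjusted p 0.000978), and Pcgf3 was lower at -0.57 ± 0.10 (adjusted p 0.00241). Rbbp7 and Bmi1, abundant members, stood at -0.02 ± 0.08 and 0.15 ± 0.07 and were not called (adjusted p 0.851 and 0.126), although with library sizes alone Bmi1 had an adjusted p of 0.0493.

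A list of genes that keep HOX genes active held 11 members, which are genes of MLL complexes, their partners, H3K27 demethylases and Dot1l, a histone methyltransferase of neither group. Of the 11, 1 was called higher and 3 lower, where 22.3% and 20.9% of all genes tested were. Kmt2a, the methyltransferase known for maintaining HOX expression, had 91.0 and 94.2 CPM in C/EBPβ libraries, against 58.8 and 64.8 CPM in empty-vector libraries, and a log2 fold change of 0.58 ± 0.08 with an adjusted p of 0.000945. Dot1l was lower at -0.52 ± 0.09 with an adjusted p of 0.00239. Wdr5 and Rbbp5, core subunits, were lower at -0.26 ± 0.07 and -0.25 ± 0.08 (adjusted p 0.0195 and 0.0291). Both lost their call without C/EBPβ replicate 1 (adjusted p 0.0893 for Wdr5 and 0.168 for Rbbp5), without empty-vector replicate 1 (0.0541 and 0.0956) and without empty-vector replicate 2 (0.107 and 0.122). With all 4 libraries Rbbp5 also lost its call with library sizes alone (adjusted p 0.066) and in DESeq2 (0.0566). Kdm6b and Psip1 stood at -0.01 ± 0.08 and -0.12 ± 0.09 and were not called (adjusted p 0.963 and 0.292).

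Retinoic acid is the classical inducer of HOX genes at the head end of the clusters. Of 13 genes of its receptors and enzymes, 10 were tested, with 6 called higher and 1 lower (22.3% and 20.9% of all genes tested). Aldh1a3, which makes retinoic acid, had 30.4 and 20.4 CPM in C/EBPβ libraries, against 2.63 and 2.61 CPM in empty-vector libraries, and a log2 fold change of 3.28 ± 0.22 with an adjusted p of 7.54e-05. Dhrs3, which turns retinaldehyde back into retinol, was higher at 2.35 ± 0.27 (adjusted p 0.0038). Cyp26b1, which degrades retinoic acid, was lower at -1.78 ± 0.22 (adjusted p 0.000604). The receptors Rarg, Rxra and Rara were higher at 0.77 ± 0.10, 0.67 ± 0.12 and 0.38 ± 0.08 (adjusted p 0.000786, 0.00406 and 0.0052). Rxrb and Cyp26a1 stood at 0.20 ± 0.10 and -0.14 ± 0.18 and were not called (adjusted p 0.136 and 0.561).

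**Figure D5:**
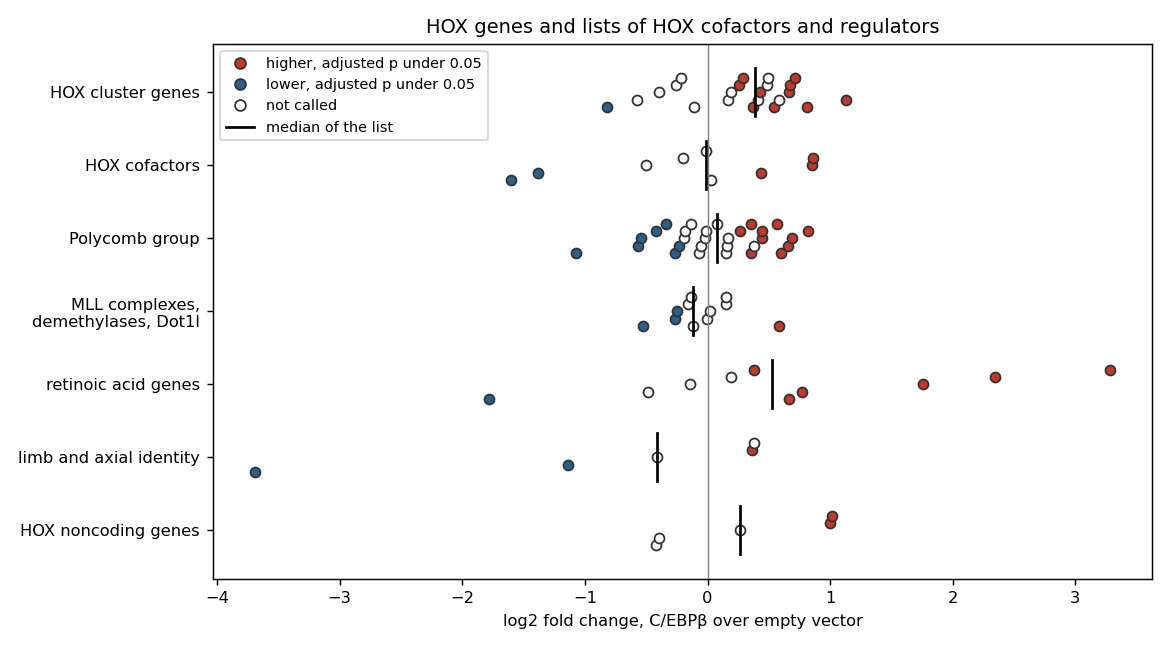
Log2 fold change (C/EBPβ over empty vector) of each gene tested in the HOX clusters and in 6 lists of cofactors, regulators and neighbours, 1 point per gene, filled where the adjusted p was under 0.05 and with a vertical bar at the median of each list. HOX cluster genes have a median of 0.39, and the other lists hold calls on one or both sides of 0; points are spread vertically only to keep them apart.

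Genes that set limb and axial identity outside the clusters gave 1 call higher and 2 lower among 5 tested of 12. Over all genes tested the shares were 22.3% higher and 20.9% lower. Shox2, a gene of the upper limb segment, was higher at a log2 fold change of 0.36 ± 0.08 with an adjusted p of 0.00715, and without empty-vector replicate 2 its adjusted p was 0.055. Gdf11, a ligand that sets the trunk to tail transition, had 53.2 and 56.3 CPM in C/EBPβ libraries, against 114 and 126 CPM in empty-vector libraries, and a log2 fold change of -1.13 ± 0.09 with an adjusted p of 5.03e-05. Lbx1, which marks migrating limb muscle precursors, had 1 and 2 fragments in C/EBPβ libraries, against 14 and 31 in empty-vector libraries (adjusted p 0.00353). Pitx1, a hindlimb gene, was at 0 in every library, and Tbx5, a forelimb gene, had 1 fragment over all of them. Tbx4 and Isl1 were tested at low counts and not called (adjusted p 0.322 and 0.51).

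Markers of other cell types moved with the same comparison, in which 22.3% of all genes tested were called higher and 20.9% lower. Of 10 skeletal muscle markers 9 were called lower and 1, Myf5, higher, and their summed level was 5893 and 9426 CPM in C/EBPβ libraries, against 21734 and 23691 CPM in empty-vector libraries. Myod1, Myog and Des, which mark the labelled muscle lineage, had fragments in every library. Of 9 fibro-adipogenic progenitor markers 4 were called higher and 2 lower, with summed levels of 948 and 799 CPM in C/EBPβ libraries, against 777 and 725 CPM in empty-vector libraries. Of 8 macrophage markers 5 were tested, with 3 called higher and 1 lower. The 8 summed to 44.5 and 41.2 CPM in C/EBPβ libraries, against 8.82 and 7.87 CPM in empty-vector libraries. Adgre1 and C1qa were at 0, and Ptprc had 1 fragment in 1 library of each group. Lyz2 alone had 28.4 and 26.1 CPM in C/EBPβ libraries, against 0.135 and 0.0791 CPM in empty-vector libraries, and without it the macrophage sums were 16.1 and 15.1 CPM in C/EBPβ libraries, against 8.68 and 7.79 CPM in empty-vector libraries. Of 6 endothelial markers only 2 were tested, each under 1 CPM in every library. Both were called lower, and Emcn was at 0. The endothelial sums were 0.842 and 0.492 CPM in C/EBPβ libraries, against 1.37 and 1.82 CPM in empty-vector libraries. Of 6 Schwann and neural markers 3 were tested and 1 was called lower, at sums of 20.8 and 18.2 CPM in C/EBPβ libraries, against 40.2 and 44.4 CPM in empty-vector libraries. The part that differentiation state or cell mixture has in the HOX values was not tested, and in these bulk samples fewer cells of a type and less RNA per cell cannot be told apart.

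Promoter windows of 300 bases, 250 before to 50 after a RefSeq start (GRCm38.p6), were at hand for 22 of the 39 genes, as 24 windows. On either strand, the C/EBP motif TTGCNNAA was in 5 of them (20.8%), beside 10.8% of all 32851 windows of that length. Of those 5 windows 3 belong to Hoxd11 and Hoxd12, which had no fragment, 1 to Hoxc4, which was not called, and 1 to Hoxa10, which was called higher. Genes called higher had 6 windows, from 5 genes, all of HOXA. Hoxc4 was the only HOXC gene with a window, so the HOXC genes called higher were not searched for motifs. The CCAAT box CCAAT was in 62.5% of HOX windows and 37.4% of all, the HOX-PBX motif TGATNNAT in 16.7% and 8.85%, and the TATA box TATAAA in 16.7% and 13.6%. No match of these motifs overlapped one of another. A match is a description of letters and shows no binding. Windows are printed for Hoxa10 at its internal start, for its neighbour Hoxa11, which was called higher with none of these motifs, and for Hoxd11, which had no fragment, at its internal start. They run 5′ to 3′ along the gene's strand, with capitals for the C/EBP motif.
Hoxa10, chr6:52234890-52235189, minus strand: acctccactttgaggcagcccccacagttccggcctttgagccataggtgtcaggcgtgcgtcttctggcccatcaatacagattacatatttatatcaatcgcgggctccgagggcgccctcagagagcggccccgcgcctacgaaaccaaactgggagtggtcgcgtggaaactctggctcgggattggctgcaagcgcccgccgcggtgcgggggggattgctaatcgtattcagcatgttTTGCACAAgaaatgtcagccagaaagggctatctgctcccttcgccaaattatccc
Hoxa11, chr6:52245761-52246060, minus strand: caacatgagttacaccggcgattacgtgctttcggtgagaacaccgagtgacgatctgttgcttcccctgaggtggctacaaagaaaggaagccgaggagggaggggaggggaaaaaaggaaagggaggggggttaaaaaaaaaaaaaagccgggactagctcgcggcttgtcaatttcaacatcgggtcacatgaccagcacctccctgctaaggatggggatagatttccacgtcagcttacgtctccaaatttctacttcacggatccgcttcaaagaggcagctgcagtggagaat
Hoxd11, chr2:74682073-74682372, plus strand: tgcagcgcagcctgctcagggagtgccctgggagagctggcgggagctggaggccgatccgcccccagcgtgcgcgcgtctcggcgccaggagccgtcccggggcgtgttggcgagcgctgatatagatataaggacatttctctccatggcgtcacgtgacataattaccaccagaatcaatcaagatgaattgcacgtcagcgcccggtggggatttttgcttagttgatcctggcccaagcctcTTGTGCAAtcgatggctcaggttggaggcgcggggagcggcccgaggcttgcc
The match in Hoxa10 starts 6 bases before the start site and that in Hoxd11 starts 3 bases before it. The windows of HOX genes held a median of 14.5 CG dinucleotides, beside 7 over all windows, and the HOXD windows, of genes at 0, held a median of 20, beside 17.5 for HOXA.

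The authors' deposited table, made with DESeq2 per the submitters' processing notes, lists 24 of the 39 genes, all 22 tested here among them. There 8 had an adjusted p under 0.05 in the authors' deposited table, each higher with C/EBPβ (Hoxa3, Hoxa5, Hoxa9, Hoxa10, Hoxa11, Hoxc6, Hoxc8 and Hoxc11), and all 8 were called higher in the present fit. The sign of the log2 fold change was the same in 22 of 22 genes. Hoxc8 had a log2 fold change of 1.03 and an adjusted p of 2.07e-05 in the authors' deposited table. Hoxb4, Hoxc9 and Hoxc10 were called in the present fit only, and the authors' deposited table gives them adjusted p-values of 0.14, 0.135 and 0.128. The sources used here do not state which libraries entered the authors' deposited table. Its mean signal for Hoxc10 is 3252 in the authors' deposited table, above the 3217 and 2224 fragments in C/EBPβ libraries and the 2256 and 2616 in empty-vector libraries. Whether it is independent of them is not known, and it is not used as a replicate.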

How the data were processed

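Groups and replicate numbers of the 4 stranded mRNA libraries, 2 per group, come from the sample titles. The submitters' processing notes name HISAT2 2.0.4, GRCm38 and featureCounts 1.4.6, but featureCounts 1.5.1 stands in the file headers. Raw fragment counts per gene were deposited by the authors; per the file headers, pairs were counted as 1 fragment, reverse stranded, on GENCODE M12. The authors' deposited table of results holds a normalized signal (mean), log2 fold changes, a score (test statistic) and p-values, raw and adjusted, per the file headers. Its libraries are not given in the sources used here, and the processing notes list DESeq2.

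GENCODE M21 names matched 49326 of 49585 identifiers. A fragment was found for 26401 genes, and 15886 passed filterByExpr in edgeR (minimum count 10, minimum total 15). TMM scaling, a robust glmQLFit and a 2-sided glmQLFTest followed (edgeR 4.0.16, R 4.3.3), and p-values were adjusted by Benjamini-Hochberg over every gene tested, with a threshold of 0.05. Standard errors were derived from the F statistic. The common biological coefficient of variation was 9.42%. Libraries of a group differed by more than sampling noise (chi-square per degree of freedom 25.9 with C/EBPβ and 18.2 with the empty vector). Depths of 36461091 to 51537847 fragments set the precision, and floors cover counting error only.

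Values of some genes and 1 stretch of sequence are left out of the text and figures and not reported here; counts of members outside the captions hold them. Members called and the 5 highest per kb have full statistics, and of each other list up to 6 called members by smallest p and up to 2 uncalled members by CPM are named. Ezh1 and some cell type markers are named outside this rule and were not followed under the alternatives. The members and lists were chosen with earlier results of these data known. Alternatives were other normalizations and filters, DESeq2 1.42.0, limma 3.58.1 (voom), no robust estimation, a replicate block and leaving out each library; for genes of the other lists they were added after seeing the data.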

Additional observations from a re-analysis of the deposited data

How the results depend on the processing

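The number of HOX cluster genes called higher was 10, with 8 to 10 under the alternatives that keep all 4 libraries, and 4 to 11 when each library was left out in turn. The number called lower was 1 (Hoxb4). It was 0 with library sizes alone, with DESeq2 and with limma-voom, and 2 with no filter on low counts. A filter at a mean of 1 CPM also gave 0, but it removed Hoxb4 before the test. Hoxb4 was not called when any 1 library was left out. Its log2 fold change ranged from -0.99 to -0.64 over the alternatives that tested it. All genes called numbered 6864, and 4005 to 7414 without each library in turn; in the other lists 23 were called higher and 15 lower, and 13 to 24 and 9 to 15 without each library in turn. A fit with 1 library in a group assumes that it varies like the other group. The replicate numbers are not stated to mark a pairing, and deviations of same-numbered libraries correlated at 0.186 across genes; with the replicate number as a block, 7677 genes, 10 HOX genes higher and 2 lower (Hoxa7 at an adjusted p of 0.0328, and Hoxb4) were called, and of the other genes named, Rxrb (0.0378) and Meis2 (0.0492) passed as well. Hoxa7 also passed with no filter on low counts (0.0482). Of the 22 members tested, 21 kept their sign throughout. Hoxb3 ranged from -0.54 to 0.31 (log2) without each library in turn. Among other genes named, all uncalled, the sign turned with library sizes alone for Pbx2 (0.047), Kdm6b (0.049) and Rbbp7 (0.031), and the range without each library in turn was -0.071 to 0.034 for Pbx2, -0.028 to 0.014 for Kdm6b, -0.087 to 0.023 for Rbbp7 and -0.10 to 0.82 for Isl1. The cause of these differences was not tested. Depth limits HOXB, where 8 of 10 genes had under 10 fragments in every library.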
